A study of Mus musculus with 9 samples.

Results

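Genes that move, store and buffer iron, zinc and copper were followed in differentiating mouse embryonic stem cells. The group comprises the families Slc11a, Slc30a, Slc39a and Slc40a and 17 named genes, among them those for the transferrin receptors, ferritin heavy chain, ceruloplasmin, hepcidin, metallothioneins and copper ATPases. A gene was included where a probe set carried its symbol alone, and 40 of the 22180 genes on the array met this rule: 14 for iron, 2 for copper, 2 metallothioneins, 14 of the Slc39a family and 8 of the Slc30a family. Each of the 40 had a single probe set. Ftl1, Slc30a1 and Slc30a10 had only probe sets that carry further symbols and were not analysed here. Transferrin has the symbol Trf in the mouse annotation, so the entry Tf matched no gene, and the probe set of Trf carries a second symbol and was not analysed here.

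The samples were 9 arrays, 3 each from days 4, 7 and 21 of differentiation. All 3 groups derive from mouse embryonic stem cells with a transgene in which green fluorescent protein is under control of the alpha-fetoprotein (Afp) promoter. The cells were differentiated as embryoid bodies on gelatin, in a medium that held serum, transferrin and ascorbic acid, and reporter-positive cells were collected by flow cytometry. The groups differ in the labels by the length of culture alone, and no undifferentiated or unsorted sample was part of the comparison. Whether the 3 arrays of a day came from separate cultures is not stated, so p-values reflect only how far these samples differ from one another, and part of that may be technical.

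Iron circulates bound to transferrin and enters cells through the transferrin receptor. It crosses the endosomal membrane through the carrier encoded by Slc11a2, is stored in ferritin and leaves the cell through ferroportin, the product of Slc40a1. Zinc enters the cytosol through the ZIP carriers of the Slc39a family, leaves it through the ZnT carriers of the Slc30a family and is buffered by metallothioneins. Copper is pumped into the secretory pathway and out of the cell by the ATPases Atp7a and Atp7b. The yolk sac endoderm and the fetal liver, both of which make alpha-fetoprotein, handle these metals for the embryo.

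Values are log2 signals after robust multi-array averaging (RMA), a procedure that corrects background and brings arrays to a common distribution, so a change common to all transcripts would largely be lost. Signals of 1088 olfactory receptor genes, which most cells do not express, served as a reference for background. The 95th percentile of these signals was 5.87 to 6.16, depending on the array. A gene counts as above background on a day when its mean exceeds the mean of that percentile. Of 10 visceral endoderm markers, 6 were above background on day 4 and 10 on days 7 and 21, and Afp itself, whose promoter drives the sorting reporter, was not above background on day 4. Hepatocyte markers above background numbered 1, 4 and 7 of 9 on days 4, 7 and 21. Other cell types moved with the days too: the mean over 10 stromal markers lay between 6.95 and 7.00 on day 4, 6.44 and 6.59 on day 7, and 8.90 and 9.73 on day 21. The mean over 8 pluripotency markers lay between 7.17 and 7.61 on day 4, 6.69 and 6.84 on day 7, and 6.02 and 6.15 on day 21, with 7, 6 and 3 of them above background. By day 7, 4 of these 8 fell, among them Tdgf1 (-3.88) and Nanog (-1.04), and Sox2 rose (1.35). Of 6 measured erythroid markers 0 were above background on any day. Among them Hbb-bh1, with a day 7 mean of 5.89, was called higher by day 7 (1.09, limma adjusted p = 0.0133). It was called lower from day 7 to day 21 (-1.42, limma adjusted p = 0.00164). Macrophage and leukocyte markers above background numbered 2, 3 and 4 of 10, and Ptprc, the pan-leukocyte marker, lay below it on all 3 days. In sorted cell pools such as these, fewer cells of a type and less RNA per cell cannot be told apart. The third day 21 array correlated with the others of its day at 0.984 and 0.987 across genes, against 0.990 between those. Its signals had a narrower interquartile range than theirs, 2.59 against 2.78 and 2.76. The third day 7 array was also narrower than the others of its day, at 2.52 against 2.67 and 2.68. Several members read low on the third day 21 array, and values without it are given where they matter.

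The cells sorted on day 7 had higher transcript levels of 3 zinc importers, the copper ATPase Atp7b, ferroportin, ferritin heavy chain and Mt1 than those of day 4. Levels were lower for 2 other zinc importers, Slc39a6 and Slc39a10, the transferrin receptor and the iron regulator Ireb2. By day 21 the 3 raised importers and Atp7b had fallen part of the way back, ferroportin and Mt1 had risen further, and Mt2 and ceruloplasmin had risen. Between days 4 and 7, 7 of the 40 genes rose and 4 fell at a limma adjusted p under 0.05, which is 27.5% of them. Of all genes tested 13.4% were called in that comparison, 6.98% higher and 6.47% lower. Between days 7 and 21, 6 rose and 7 fell (32.5%), against 23.0% of all genes, 12.4% higher and 10.7% lower. Over the whole course, from day 4 to day 21, 12 rose and 4 fell, against 29.1% of all genes, 15.0% higher and 14.1% lower. The median log2 change of the 40 genes was 0.12, 0.06 and 0.21 in these comparisons, beside -0.01, -0.03 and -0.03 over all genes. The median size of the change, whatever its sign, was 0.18, 0.19 and 0.28 for the members and 0.15, 0.19 and 0.21 for all genes. With each array centred on its median instead, 5 members rose and 9 fell from day 7 to day 21 (10.2% of all genes higher and 17% lower), and 9 rose and 5 fell from day 4 to day 21 (12.1% higher and 20.8% lower). The first comparison shares its day 7 arrays with the second, and the third shares arrays with both.

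**Figure D1:**
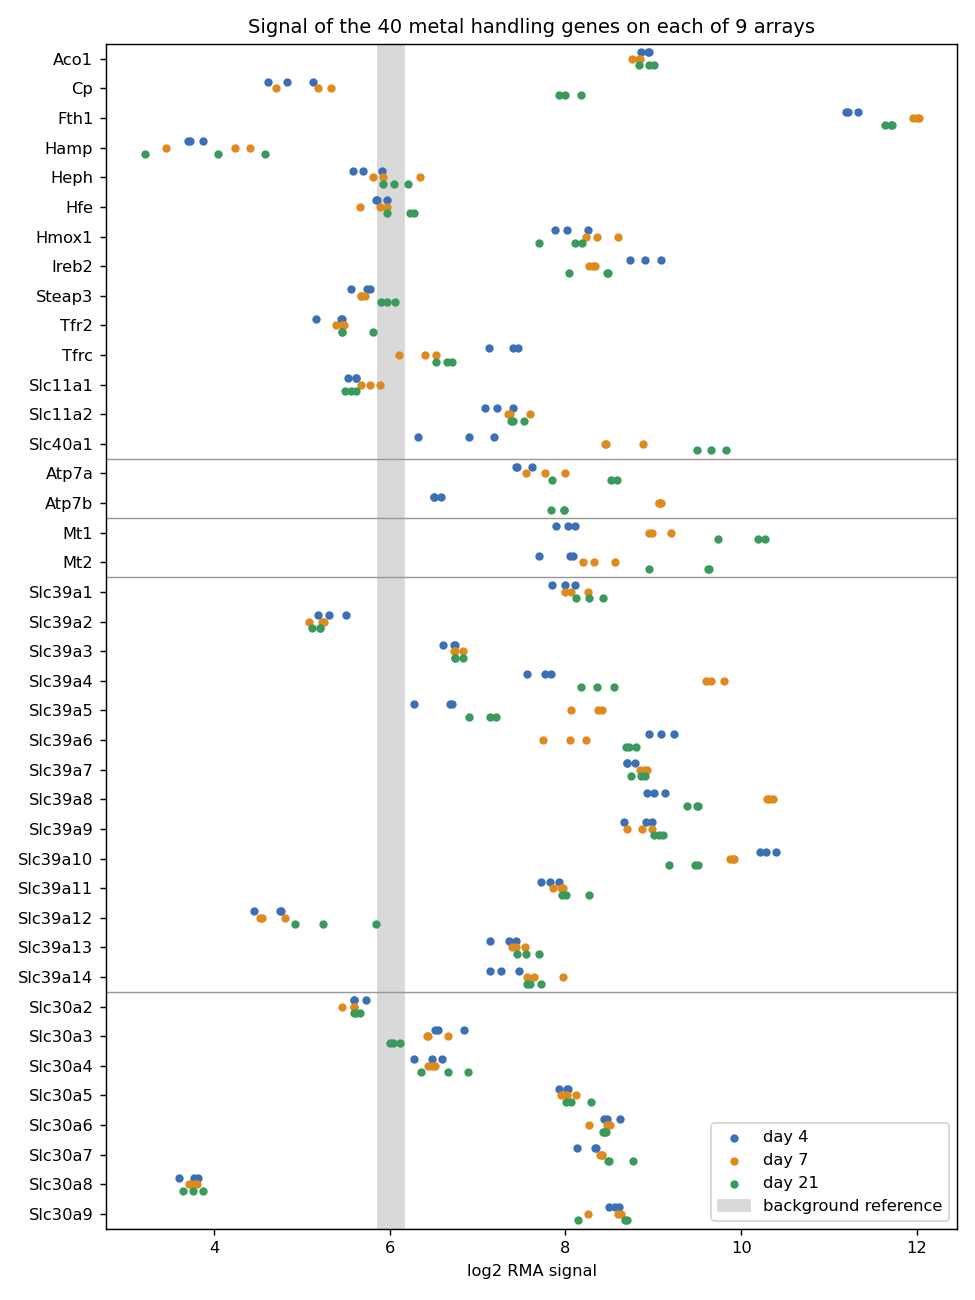
Log2 RMA signal (x axis) of each of the 40 genes (y axis, grouped from top to bottom as iron, copper, metallothioneins, Slc39a and Slc30a), with a point per array coloured by day and a grey band for the range of the background reference, 5.87 to 6.16. Hamp and Slc30a8 sit left of the band on all 9 arrays, and Cp crosses it only on day 21.

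Levels on the array show which genes were detected at all. Of the 40, 32 were above background on at least 1 day and 29 on all 3 days. Cp, Heph and Hfe were above it on day 21 alone. The 8 that were not above background on any day were Hamp, Slc11a1, Slc30a2, Slc30a8, Slc39a2, Slc39a12, Steap3 and Tfr2. Hamp encodes hepcidin, the liver hormone that makes ferroportin be degraded, and its signals lay between 3.21 and 4.58 on the 9 arrays. Hamp2, its mouse paralogue, lay between 4.56 and 5.49 and also passed in no comparison.

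**Figure D2:**
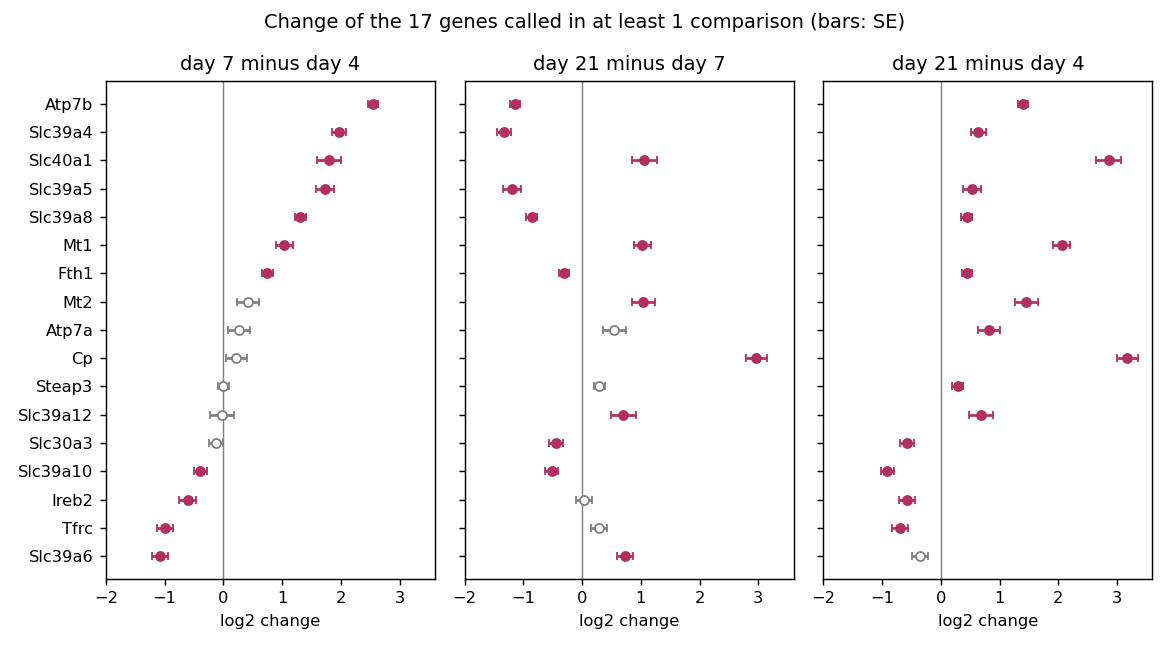
Log2 change ± SE (x axis) of the 17 genes called in at least 1 comparison (y axis), with filled points for changes that passed a limma adjusted p under 0.05 and open grey points for those that did not. Counting filled points alone, Atp7b, Slc39a4, Slc39a5, Slc39a8 and Fth1 lie right of 0 in the first panel and left of it in the second. On the same count Slc39a6 does the reverse, and Slc40a1 and Mt1 lie right of 0 in all 3 panels.

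For iron entry, the transferrin receptor gene Tfrc (probe set 17324835) read 7.46, 7.13 and 7.41 on the day 4 arrays, 6.53, 6.40 and 6.10 on day 7, and 6.71, 6.66 and 6.53 on day 21. Every day 4 array was above every later one, and days 7 and 21 overlapped. Tfrc fell by day 7 with a log2 change of -0.99 ± 0.14 (SE, n = 3 arrays per day; limma adjusted p = 6.25e-04). The change from day 7 to day 21 was 0.29 ± 0.14 and did not pass (limma adjusted p = 0.165), and at day 21 the level was still lower than on day 4 by -0.70 ± 0.14 (limma adjusted p = 0.00259). Tfr2, which encodes the second transferrin receptor, a sensor of iron-loaded transferrin in hepatocytes, lay between 5.17 and 5.81, below background. Hfe, whose product binds the transferrin receptor, lay between 5.67 and 6.28, with 0.27 ± 0.12 from day 4 to day 21 (limma adjusted p = 0.124). Slc11a2 (17321683), the endosomal iron carrier DMT1, read 7.40, 7.09 and 7.22 on day 4, 7.59, 7.36 and 7.34 on day 7, and 7.38, 7.53 and 7.40 on day 21. Its groups overlapped in each comparison, and the interval of the change from day 4 to day 21 ran from -0.06 to 0.45 (95%). Steap3, the ferrireductase that works with that carrier, had a day 21 mean of 5.98, below background, and its change of 0.29 ± 0.10 from day 4 passed narrowly (limma adjusted p = 0.0475). That call was lost under 14 of 16 alternative settings, among them the omission of any 1 of the 9 arrays, with adjusted p from 0.0470 to 0.201.

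The sensors of cytosolic iron are the iron regulatory proteins. Their RNA binding protects the Tfrc transcript and blocks translation of ferritin when iron is scarce. Aco1 (17412730), which encodes the one that doubles as cytosolic aconitase, read 8.94, 8.86 and 8.95 on day 4, 8.85, 8.84 and 8.75 on day 7, and 8.84, 9.01 and 8.95 on day 21. None of its 3 changes passed, and the interval of the change from day 4 to day 21 ran from -0.19 to 0.22. Ireb2 (17517424), which encodes the other, read 9.09, 8.91 and 8.74 on day 4, 8.31, 8.26 and 8.34 on day 7, and 8.49, 8.48 and 8.04 on day 21. The day 4 arrays stood above all later ones. Ireb2 fell by day 7 (-0.61 ± 0.14, limma adjusted p = 0.0149) and was still lower at day 21 (-0.58 ± 0.14, limma adjusted p = 0.00941). The first of these calls was lost without the first day 4 array (adjusted p = 0.0629) and without the second day 7 array (0.0512), and its adjusted p over all alternatives ran from 0.00401 to 0.0629. Without the third day 21 array, the lowest of its day, the change of Ireb2 from day 4 to day 21 was -0.43 (limma adjusted p = 0.0215). Of 8 pluripotency markers, 4 had also fallen from day 4 by day 7 and 6 by day 21. Sox2 rose in both comparisons (1.35 and 1.79), and 3 and 1 of the 8 did not pass. The part of these markers in the falls of Tfrc and Ireb2 was not tested.

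The ferritin and ferroportin genes, for storage and export, rose between days 4 and 7. Fth1 (17357418), the ferritin heavy chain that oxidises iron as it is stored, read 11.19, 11.21 and 11.33 on day 4, 12.02, 12.00 and 11.95 on day 7, and 11.71, 11.72 and 11.63 on day 21. The 3 days did not overlap, with day 7 highest and day 4 lowest. Fth1 rose 1.68-fold by day 7 (0.75 ± 0.09 on the log2 scale, limma adjusted p = 2.33e-04). It was 1.36-fold above day 4 at day 21 (0.44 ± 0.09, limma adjusted p = 0.00324). The fall from day 7 to day 21 was small (-0.31 ± 0.09, limma adjusted p = 0.0303) and was lost under 9 of 17 alternatives, 6 of which leave out 1 array of day 7 or day 21, with adjusted p from 0.00273 to 0.0876.

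Slc40a1 (17222777), which encodes ferroportin, read 7.18, 6.33 and 6.90 on day 4, 8.88, 8.46 and 8.45 on day 7, and 9.49, 9.83 and 9.65 on day 21. Each day stood wholly above the one before it. The gene rose 3.47-fold between days 4 and 7 (1.80 ± 0.21, limma adjusted p = 2.03e-04) and a further 2.08-fold by day 21 (1.06 ± 0.21, limma adjusted p = 0.00383). The whole rise was 7.22-fold (2.85 ± 0.21, limma adjusted p = 3.52e-06). Ferroportin is also abundant in macrophages that recycle red cells. Of 10 macrophage and leukocyte markers, 3 were called higher on day 21 than on day 4: Cd68 (0.99), Csf1r (1.56, from below background) and Lyz2 (0.87, below background throughout). Cd68 was also higher on day 7 (0.89). Ptprc, Adgre1, Tyrobp, Fcer1g and Mrc1 had day means below background throughout and passed in no comparison. C1qa was above background on all 3 days and C1qb on days 7 and 21, and neither passed in any comparison. The mean over the 10 genes went from between 5.66 and 5.78 on day 4 to between 6.04 and 6.13 on day 21. The mean over 10 visceral endoderm markers lay between 6.43 and 6.64 on day 4 and between 9.69 and 9.76 on day 7. On day 21 it lay between 9.02 and 9.06. The mean over 9 hepatocyte markers lay between 5.39 and 5.57 on day 4 and between 6.54 and 6.63 on day 7. On day 21 that mean lay between 8.43 and 8.59. The part of these shifts in the change of Slc40a1 was not tested.

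The oxidases that load exported iron onto transferrin differed from each other. Cp (17396260), the copper protein ceruloplasmin secreted by liver, read 4.61, 5.13 and 4.83 on day 4, 5.18, 4.70 and 5.33 on day 7, and 7.93, 8.17 and 8.0 on day 21. Days 4 and 7 overlapped below background, and all day 21 arrays lay well above it. The change from day 7 to day 21 was 2.96 ± 0.18 (limma adjusted p = 1.16e-06), 7.78-fold, although the day 7 signals lay below background. Over the same interval 6 of 9 hepatocyte markers rose and 1, Hnf4a, fell (-1.03), while Serpina1a and Tat did not pass and lay below background. The mean of that list went from between 6.54 and 6.63 on the day 7 arrays to between 8.43 and 8.59 on day 21. Of 10 stromal markers, 9 rose. Their part in the change of Cp was not tested. Heph, the membrane-bound relative of ceruloplasmin, had a mean of 5.73 ± 0.17 (SD) on day 4, 6.02 ± 0.28 on day 7 and 6.06 ± 0.14 on day 21 and passed in no comparison. Hmox1, the heme oxygenase that releases iron from heme, lay between 7.69 and 8.60 and did not pass either (lowest limma adjusted p = 0.103). Slc11a1, the phagosomal iron carrier of macrophages, stayed between 5.50 and 5.89, below background.

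**Figure D3:**
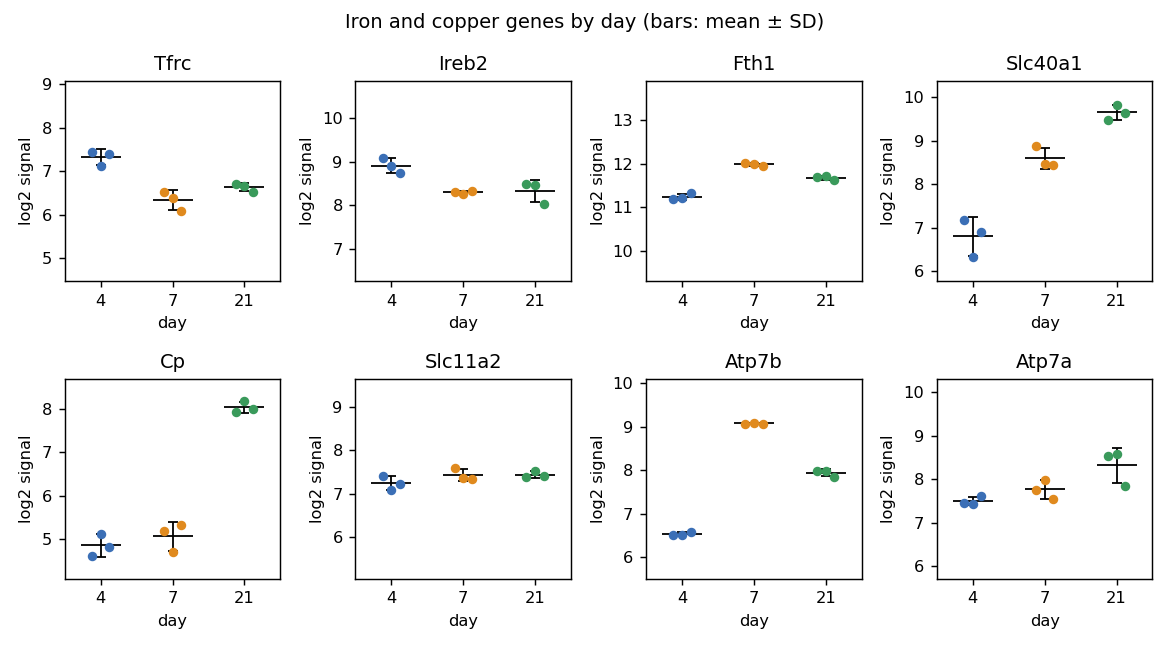
Log2 RMA signal (y axis) by day (x axis) of 6 iron genes and both copper ATPases, with a point per array and black bars for mean ± SD of 3 arrays; every panel spans the same number of log2 units. Slc40a1 steps up at each day, Tfrc steps down after day 4, Cp is high on day 21 alone, and Atp7b is highest on day 7.

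Of the copper ATPases, Atp7b, the pump of liver and yolk sac endoderm that loads copper onto ceruloplasmin, moved furthest between days 4 and 7 among the 40 genes. Atp7b (17507955) read 6.51, 6.51 and 6.59 on day 4, 9.07, 9.09 and 9.06 on day 7, and 7.98, 7.98 and 7.84 on day 21. The arrays of a day lay close together and the 3 days did not overlap. Atp7b rose 5.82-fold by day 7 (2.54 ± 0.09, limma adjusted p = 6.65e-08) and then fell by day 21 (-1.14 ± 0.09, limma adjusted p = 7.28e-06), to a level 2.64-fold above day 4 (1.40 ± 0.09, limma adjusted p = 1.28e-06). The mean over the 10 visceral endoderm markers went the same way, from between 6.43 and 6.64 on day 4 to between 9.69 and 9.76 on day 7 and between 9.02 and 9.06 on day 21. From day 7 to day 21, 8 of these markers fell, while Afp (2.47) and Rhox5 (0.59) rose. The part of these cells in the course of Atp7b was not tested.

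Atp7a (17537055), the pump of most other tissues and of the gut epithelium, read 7.45, 7.44 and 7.62 on day 4, 7.76, 7.99 and 7.55 on day 7, and 8.52, 8.58 and 7.84 on day 21. The third day 21 array lay among the day 7 values, and the other two lay above them. It was higher on day 21 than on day 4 by 0.82 ± 0.19 (limma adjusted p = 0.00793). Between days 7 and 21 the change of 0.55 ± 0.19 did not pass (limma adjusted p = 0.0638). Without the third day 21 array that change was 0.78 (limma adjusted p = 0.00306), and over all alternatives the adjusted p ran from 0.00306 to 0.207. Atp7b and Atp7a thus changed by 2.54 and 0.27 in the first interval and by -1.14 and 0.55 in the second, and the differences between these genes were not tested.

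Mt1 and Mt2 encode metallothioneins, small cysteine-rich proteins that bind zinc and copper. Both are switched on by zinc through the transcription factor MTF1, which binds metal response elements. The 250 bases before each annotated start, from RefSeq on GRCm38.p6, are shown because both transcripts rose. Capitals mark matches to the core of that element, searched as TGCACNC and TGCGCNC on both strands. The first window is chr8:94178839-94179088 and the second chr8:94172368-94172617, both on the plus strand.
Mt1: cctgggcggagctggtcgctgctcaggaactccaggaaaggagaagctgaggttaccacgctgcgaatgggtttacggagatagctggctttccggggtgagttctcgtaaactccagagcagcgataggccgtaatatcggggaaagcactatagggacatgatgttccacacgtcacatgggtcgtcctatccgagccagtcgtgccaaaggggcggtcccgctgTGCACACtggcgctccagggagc
Mt2: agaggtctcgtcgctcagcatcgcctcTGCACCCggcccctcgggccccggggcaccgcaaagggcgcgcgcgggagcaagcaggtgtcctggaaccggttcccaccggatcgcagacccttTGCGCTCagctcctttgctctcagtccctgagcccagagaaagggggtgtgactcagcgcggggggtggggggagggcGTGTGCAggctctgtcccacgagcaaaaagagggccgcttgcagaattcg
The Mt1 window held 1 match, which begins 23 bases before the start, and 2 more reached past the start into the next 50 bases. The Mt2 window held 3 matches, which begin 223, 128 and 50 bases before the start, the last on the minus strand. In Mt2, 1 more match reached past the start. No 2 of the matches marked in capitals overlapped, and those that reach past the start were not checked for overlap. Of 32851 mouse windows of this length, 21.4% held at least 1 match and 1.26% held at least 3. Among the 40 genes, 32 had an entry, with 45 windows in all, and 14 of these (31.1%) held a match. They included windows of Tfrc, with 2 matches that overlap, and of Atp7a, with 2, alongside those of Slc30a2 and Slc30a4. A match describes letters in the window and is not a binding site.

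Mt1 (17503942) read 7.90, 8.03 and 8.11 on day 4, 8.95, 9.20 and 8.98 on day 7, and 10.20, 10.27 and 9.74 on day 21. Each day stood wholly above the one before it. Mt1 rose 2.05-fold between days 4 and 7 (1.03 ± 0.15, limma adjusted p = 8.06e-04) and 2.03-fold from day 7 to day 21 (1.02 ± 0.15, limma adjusted p = 5.04e-04), 4.16-fold in all. Mt2 (17503937) read 8.09, 7.70 and 8.05 on day 4, 8.20, 8.57 and 8.32 on day 7, and 9.62, 9.64 and 8.95 on day 21. Days 4 and 7 did not overlap but lay close, and the change of 0.42 ± 0.19 between them did not pass (limma adjusted p = 0.221). Mt2 rose 2.05-fold from day 7 to day 21 (1.04 ± 0.19, limma adjusted p = 0.00273) and was 2.74-fold above day 4 at the end (1.46 ± 0.19, limma adjusted p = 2.30e-04). The third day 21 array was the lowest of its day for both genes. Without it the rises from day 7 were 1.19 for Mt1 and 1.27 for Mt2.

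Among the ZIP zinc importers, 3 rose at day 7 and fell back by day 21. Slc39a4 (17318587), the importer of the yolk sac endoderm and gut whose human counterpart is mutated in acrodermatitis enteropathica, read 7.83, 7.57 and 7.77 on day 4, 9.81, 9.60 and 9.66 on day 7, and 8.18, 8.36 and 8.55 on day 21. The 3 days did not overlap. Slc39a4 rose 3.91-fold by day 7 (1.97 ± 0.12, limma adjusted p = 2.70e-06), then fell by 1.33 ± 0.12 (limma adjusted p = 2.50e-05), and stayed 1.56-fold above day 4 at day 21 (0.64 ± 0.12, limma adjusted p = 0.00259). Slc39a5 (17246113), a basolateral zinc importer of gut, pancreas and yolk sac, read 6.69, 6.71 and 6.27 on day 4, 8.42, 8.06 and 8.37 on day 7, and 6.90, 7.21 and 7.14 on day 21. Again the days were apart, with day 7 highest. It rose 3.31-fold (1.73 ± 0.15, limma adjusted p = 3.03e-05) and then fell by 1.20 ± 0.15 (limma adjusted p = 2.19e-04). The remaining difference between days 21 and 4, 0.53 ± 0.15 (limma adjusted p = 0.0232), was lost under 5 of 17 alternatives, with adjusted p from 0.0104 to 0.0886. The alternatives that ended it include leaving out the third day 4 array (0.0886), the second day 21 array (0.0822) or the third day 21 array (0.0630).

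Slc39a8 (17402936), a carrier of zinc, manganese and iron, read 9.01, 8.92 and 9.13 on day 4, 10.30, 10.31 and 10.36 on day 7, and 9.38, 9.50 and 9.51 on day 21. All 3 days were separate. It rose 2.47-fold (1.30 ± 0.09, limma adjusted p = 7.70e-06), fell by 0.86 ± 0.09 (limma adjusted p = 8.01e-05) and ended 1.36-fold above day 4 (0.44 ± 0.09, limma adjusted p = 0.00476). Slc39a14, its close relative and a hepatic importer of iron and manganese as well as zinc, had means of 7.29 ± 0.16, 7.73 ± 0.22 and 7.62 ± 0.08 (SD). Its day 7 arrays all lay above those of day 4, and the change of 0.43 ± 0.13 did not pass (limma adjusted p = 0.0570). For these importers, as for Atp7b, the mean over the visceral endoderm markers and 8 of its 10 genes were highest on day 7, Afp and Rhox5 being highest on day 21. Their part was not tested.

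The pair Slc39a6 and Slc39a10 behaved differently from the 3 importers above. Both encode plasma membrane ZIP proteins linked to cell migration in early embryos. Slc39a6 (17353153) read 9.09, 8.95 and 9.23 on day 4, 8.05, 8.23 and 7.74 on day 7, and 8.80, 8.69 and 8.72 on day 21. The day 7 arrays were the lowest, and the days did not overlap. Slc39a6 fell by 1.08 ± 0.13 by day 7 (limma adjusted p = 2.92e-04) and rose by 0.73 ± 0.13 by day 21 (limma adjusted p = 0.00235). The difference between days 21 and 4, -0.35 ± 0.13, did not pass (limma adjusted p = 0.0722). It passed under 5 alternatives, among them median centring, with adjusted p over all of them from 0.0258 to 0.221.

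Slc39a10 (17222800) read 10.39, 10.21 and 10.29 on day 4, 9.91, 9.92 and 9.88 on day 7, and 9.48, 9.51 and 9.18 on day 21. Each day lay wholly below the one before. It fell by 0.91 ± 0.11 over the whole course (limma adjusted p = 1.18e-04) and by 0.51 ± 0.11 from day 7 to day 21 (limma adjusted p = 0.00632). The fall to day 7, -0.40 ± 0.11, passed with a limma adjusted p of 0.0386 and was lost under 7 of 17 alternatives, including the omission of any 1 array of days 4 and 7, with adjusted p from 0.0135 to 0.129. Of 8 pluripotency markers, 4 also fell by day 7, Sox2 rose (1.35) and 3 did not pass. From day 7 to day 21, when Slc39a6 rose and Slc39a10 fell further, 3 markers fell, 0 rose and 5 did not pass. The part of these markers in the courses of Slc39a6 and Slc39a10 was not tested.

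**Figure D4:**
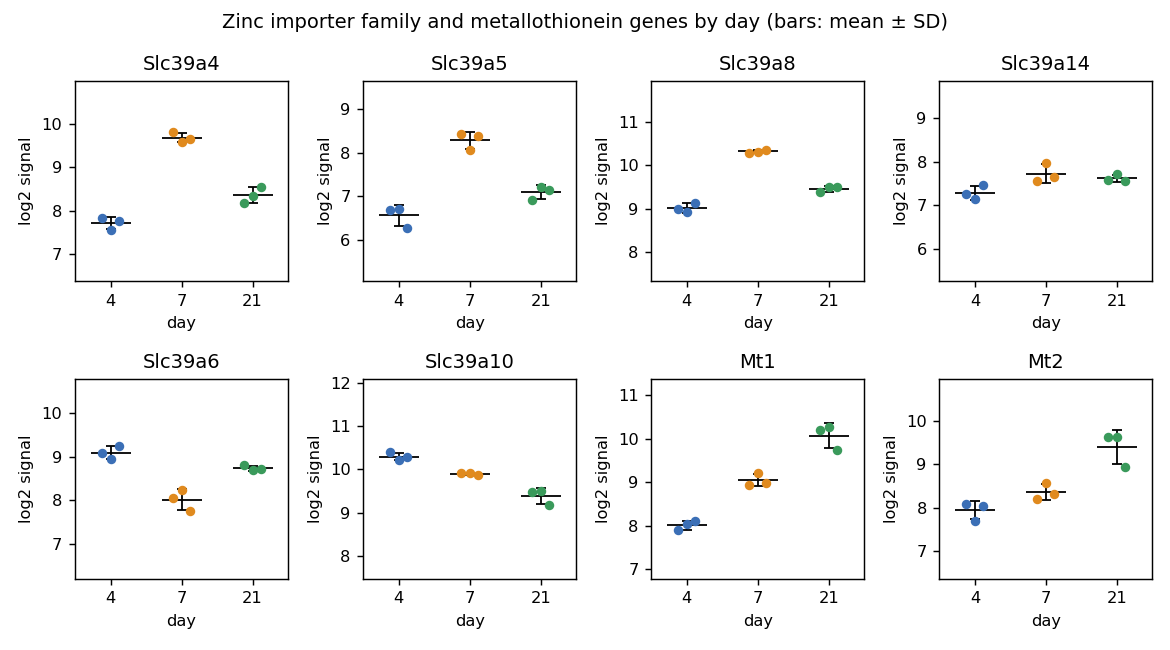
Log2 RMA signal (y axis) by day (x axis) of 6 Slc39a genes and both metallothionein genes, with a point per array and black bars for mean ± SD of 3 arrays; every panel spans the same number of log2 units. Slc39a4, Slc39a5 and Slc39a8 peak on day 7, Slc39a6 is lowest there, Slc39a10 declines, and Mt1 climbs from a mean of 8.01 to 10.07.

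Of all 14 Slc39a genes, 35.7%, 42.9% and 35.7% were called in the 3 comparisons, against 13.4%, 23.0% and 29.1% of all genes. Of the other 9 members of the family, 1 passed in any comparison. Slc39a12 was called higher on day 21, at 0.70 ± 0.21 against day 7 (limma adjusted p = 0.0320) and 0.68 ± 0.21 against day 4 (limma adjusted p = 0.0310). Its signals of 5.84, 5.24 and 4.92 on day 21 spread widely and all lay below the background reference of that day. Without the first day 21 array these changes were 0.45 and 0.42, with limma adjusted p of 0.0751 and 0.0763. Leaving out the second day 21 array, the first or second day 7 array or any day 4 array also ended the call it bears on, and adjusted p ran from 0.00744 to 0.0972 and from 0.00684 to 0.115. Slc39a1, Slc39a2, Slc39a3, Slc39a7, Slc39a9, Slc39a11, Slc39a13 and Slc39a14 passed in no comparison, and the size of their largest log2 change ranged from 0.08 (Slc39a3) to 0.43 (Slc39a14). Slc39a7, which releases zinc from the endoplasmic reticulum, and Slc39a9 and Slc39a13, which serve the Golgi, are among these.

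The zinc exporters of the Slc30a family showed 1 change among 8 genes. Slc30a3 (17446817), the carrier that fills synaptic vesicles with zinc, read 6.52, 6.54 and 6.84 on day 4, 6.66, 6.43 and 6.42 on day 7, and 6.0, 6.04 and 6.12 on day 21. The day 21 arrays lay below all others and close to background. It was lower on day 21 than on day 4 by -0.58 ± 0.12 (limma adjusted p = 0.00354). Against day 7 the difference was -0.45 ± 0.12 (limma adjusted p = 0.0183), a call lost without the first day 7 array (0.0740), the first day 21 array (0.0580) or the second day 21 array (0.0525), with adjusted p over all alternatives from 0.00693 to 0.0740. Slc30a5, Slc30a6 and Slc30a7, which load zinc into the secretory pathway, lay between 7.92 and 8.77 on all arrays and did not pass in any comparison. The lowest limma adjusted p among them was 0.0596 (Slc30a7, 0.31 ± 0.11 from day 4 to day 21). Slc30a4 and Slc30a9 were above background on each day and did not pass, while Slc30a2 and Slc30a8, the latter the zinc carrier of insulin granules, were below it. In the first comparison, where 13.4% of all genes were called by limma, 0 of the 8 exporters passed and 0 had an unadjusted p under 0.05, and for 8 genes a count of 0 is near that share. In the second and the third 1 of 8 passed (12.5%), against 23.0% and 29.1% of all genes.

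In all, 17 of the 40 genes were called in at least 1 comparison and 23 in none, of which 6 were below background on every day. The share of all genes called in at least 1 comparison was not computed. From day 4 to day 21 alone, 29.1% of all genes were called, so the count of 17 is not read as a result about the members. Of the 40 calls over the 3 comparisons, 32 stood under each of the 17 alternative settings that keep the threshold, and 19 met a threshold of at least a 2-fold change.

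Around these genes, 66 of 79 listed symbols of iron, heme, copper and zinc biology were measured. Between days 4 and 7, 13 of the 66 rose and 1 fell, from day 7 to day 21 21 rose and 12 fell, and over the whole course 28 rose and 6 fell. The shares called were 21.2%, 50.0% and 51.5%, against 13.4%, 23.0% and 29.1% of all genes. Their median log2 change was 0.15, 0.05 and 0.30, beside -0.01, -0.03 and -0.03 over all genes. Of 18 heme genes 4, 8 and 10 rose and 0, 4 and 2 fell in the 3 comparisons. Of 25 iron genes 5, 7 and 9 rose and 0, 5 and 3 fell. Of 11 copper genes 2, 2 and 4 rose and 0 fell in any. Of 7 genes of glutathione and oxidative control, 2, 4 and 5 rose and 0, 1 and 0 fell. Of 5 zinc genes 0 rose in any comparison, and 1, 2 and 1 fell. Mt3 passed in no comparison, and Mt4 lay below background throughout.

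By day 7 the largest rises of this wider set were those of Bmp6, the ligand that induces hepcidin (1.45 ± 0.18, limma adjusted p = 3.37e-04), and Exoc6, an exocyst subunit needed for transferrin receptor traffic in red cell precursors (1.32 ± 0.11). Flvcr2, a carrier of the heme exporter family, rose by 1.20 ± 0.12 from a day 4 mean below background, and Gclm, a subunit of the rate-limiting enzyme of glutathione synthesis, by 0.87 ± 0.12. Car2, a zinc enzyme, carbonic anhydrase, was the gene that fell (-0.79 ± 0.13, limma adjusted p = 0.00172). Bmp6 read 6.45, 6.80 and 6.99 on day 4, 8.33, 8.45 and 7.80 on day 7, and 7.32, 7.18 and 7.16 on day 21, so it was highest on day 7 with no overlap. Hamp remained below background on all of these days.

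From day 7 to day 21 the largest rise was that of Epas1, which encodes the hypoxia factor HIF-2alpha, a regulator of iron absorption genes (2.84 ± 0.11, limma adjusted p = 5.64e-08). Its arrays read 7.47, 7.37 and 7.37 on day 7 and 10.44, 10.21 and 10.10 on day 21, far apart. Lox, the copper-dependent oxidase that cross-links collagen, rose by 2.80 ± 0.29 from a day 7 mean below background and read 8.47, 7.48 and 7.00 on day 21, where the stromal marker mean was 9.73, 9.27 and 8.90. The part of stromal cells in this rise was not tested. Slc7a11, the cystine carrier, rose by 2.32 ± 0.20, and Lcn2, a siderophore-binding protein, by 2.06 ± 0.23, both from below background. Abcg2, an efflux pump that also carries porphyrins, fell by 2.41 ± 0.18, Car2 by 2.20 ± 0.13, Bmp6 by 0.97 ± 0.18 and Mt4, below background, by 0.69 ± 0.20. Every limma adjusted p among these 8 genes was at most 0.0289 (Mt4).

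Over the whole course Epas1 rose by 3.00 ± 0.11, the largest measured rise of the set. Next were Lox (2.53 ± 0.29, from a day 4 mean below background), Hpx, the heme-binding plasma protein hemopexin (2.52 ± 0.18), and Cybrd1, a duodenal ferrireductase (2.23 ± 0.13), and the difference between Lox and Hpx is within their errors. Cybrd1 read 6.43, 6.09 and 6.42 on day 4, 6.92, 6.92 and 6.65 on day 7, and 8.59, 8.68 and 8.39 on day 21, and each day was wholly above the one before. Of 6 intestinal epithelium markers, 4 were above background on day 21 and 1 on each earlier day. Over the whole course 4 of them rose, though Vil1 fell from day 7 to day 21 (-0.94). Cdx1 and Cdx2 lay below background on all 3 days and passed in no comparison. The part of these markers in the rise of Cybrd1 was not tested. Car2 (-2.98 ± 0.13), Abcg2 (-1.62 ± 0.18), Urod, an enzyme of heme synthesis (-0.92 ± 0.12), and Pcbp2, an RNA-binding iron chaperone (-0.51 ± 0.09), were the largest falls. The limma adjusted p was at most 0.00163 (Pcbp2) among these 8 genes.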

How the data were processed

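Expression was measured on 9 arrays. The authors deposited log2 signals per probe set. The submitters' processing notes name RMA and Affymetrix Expression Console, with version and settings not given in the sources used here. Per the labels' protocols, RNA was labelled with a kit for very small inputs, whose amplification can distort ratios of dim transcripts. Of 34365 probe sets, 23521 carried 1 gene symbol in the platform annotation, 1814 several and 9030 none here. The brightest probe set per gene was kept (22180 genes). Of the probe sets with 1 symbol, 23328 matched RefSeq (GRCm38.p6) by gene number, which changed 0 symbols. No pair of arrays held identical values, and arrays give no counting depth, so their number limits the precision.

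The linear model had 1 coefficient for each day over the 9 arrays together (lmFit and eBayes of limma 3.58.1, R 4.3.3). Two-sided p-values were adjusted by Benjamini-Hochberg over all genes and called under 0.05. The procedure was tested on simulated data. Named genes are members called with a change of at least 2-fold, whatever their result, Tfrc, Slc11a2, Aco1, Ireb2, Fth1, Slc40a1, Hamp, Mt1, Mt2, Atp7a and Atp7b (Tf and Ftl1 were listed too but had no probe set of their own), and of the wider pathway at most the 4 largest called rises and falls per comparison, with Hamp2. Other called members, and those set beside them, were named after their values were seen. The members and lists were chosen with earlier results of these data known. The olfactory receptor reference for background was chosen after seeing the data. The wider list holds 79 symbols, some of them synonyms. The main fit did not pair arrays by replicate number. Deviations of same-numbered arrays correlated between -0.054 and -0.001 where 1 of them was of day 4. Between days 7 and 21 they correlated at 0.078, 0.139 and 0.263, against -0.176 to 0.074 for arrays of different number. A fit with the number as a block is given below. Figures were drawn with matplotlib 3.10.9. Alternatives covered scaling, probe sets, dim genes, the variance model, thresholds, a replicate block and leaving out each array.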

Additional observations from a re-analysis of the deposited data

How the results depend on the processing

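Of the 40 calls among the members, 32 stood under each of the 17 alternatives that keep the threshold and 8 were lost under at least 1. An adjusted p under 0.01 left 32 of the 40, and a change of at least 2-fold left 19. No called result reversed. With only changes of at least 2-fold called, members lower by day 7 went from 4 to 1, those lower from day 7 to day 21 from 7 to 3, those higher at day 21 than day 4 from 12 to 5, and those lower from 4 to 0. At an adjusted p under 0.01, members lower by day 7 were 2. Leaving out 1 array gave 7 to 8 members higher and 2 to 4 lower by day 7, 5 to 8 higher and 5 to 7 lower from day 7 to day 21, and 9 to 12 higher and 4 to 5 lower from day 4 to day 21. In the wider pathway a change of at least 2-fold left 3 of 13 rises and 0 of 1 falls by day 7, 8 of 21 and 2 of 12 from day 7 to day 21, and 9 of 28 and 2 of 6 over the whole course. There, leaving out 1 array gave 10 to 13 rises and 1 to 2 falls by day 7, 18 to 22 and 9 to 12 from day 7 to day 21, and 25 to 28 and 4 to 7 over the whole course. The falls by day 7 were 2 with a mean-variance trend and robust fit, and also without the second day 4 array or the first day 7 array. With the replicate number as a block, members higher and lower were 7 and 3, 6 and 6, and 11 and 4 in the 3 comparisons, and 3 calls were lost. Same-numbered arrays deviated together weakly between days 7 and 21, and not between day 4 and either later day. Median centring moved the median of all genes from -0.03 to -0.13 (day 7 to day 21) and -0.14 (day 4 to day 21), so changes at day 21 are relative to a centre that depends on the scaling. Genes near background have little signal to lose, which limits what the arrays can show of Hamp, Tfr2 and the others at that level.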
